A study of Mus musculus with 2 samples.

Results

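The Calca Lhx8 Six3 neurons were 91 of 8072 neurons from the mouse preoptic area, 45 of 3923 in one library and 46 of 4149 in the other, out of 10262 and 8106 cell barcodes. A cell counted as a neuron with at least 2000 genes, under 20% mitochondrial UMIs (unique molecular identifiers, 1 for each captured RNA molecule), at least 10 UMIs of Snap25 and Syt1 together, and at most 1 UMI of Mog and Ermn. A neuron belonged to the group with at least 3 UMIs of Calca and at least 1 UMI of 2 or more of Lhx8, Six3, Adgrf5 and Tmem178. The group made up 1.15% of neurons in the first library (exact binomial 95% interval 0.838 to 1.53%) and 1.11% in the second (0.813 to 1.48%). These neurons were compared with all other neurons of the same library, and between libraries.

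The mice were C57BL/6J wild types of 9 to 10 weeks, with males and females pooled and no allele or agent named. In the SD group, mice were kept awake for 6 h. In the SD+RS group, the same 6 h without sleep were followed by 2 h in which they could sleep. Cells were dissociated by Act-seq, which adds a blocker of transcription during tissue handling, and captured on the 10x Genomics platform. The design asks which preoptic neurons are active during rebound sleep. Each group is 1 library made from pooled mice, and the sources used here do not give how many mice each pool held. No difference between the groups has a replicate check, so no test across samples was made. All intervals are 95% intervals that cover counting error only.

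Calca encodes both calcitonin and the neuropeptide alpha-CGRP, which arise by alternative splicing, and counts per gene do not tell them apart. Lhx8 is a LIM-homeodomain transcription factor of lineages from the medial ganglionic eminence and the ventral forebrain, where it is known from cholinergic and some GABA neurons. Six3 is a homeodomain transcription factor that patterns the anterior forebrain. Tmem178 is a membrane protein of the endoplasmic reticulum. Adgrf5 is an adhesion G protein-coupled receptor best known from endothelium. The preoptic area is known for its sleep-promoting neurons, and for cells that set body temperature and social behaviour.

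In the annotation of the mm10 build, Calca lies at chr7:114631478-114636357 on the minus strand and Lhx8 at chr3:154306294-154330659 on the minus strand. Six3 lies at chr17:85613608-85629302, Tmem178 at chr17:80944632-81001816 and Adgrf5 at chr17:43360451-43459557, all on the plus strand. The RefSeq promoters of Calca and Six3, a companion gene whose share of cells varied with Calca within 1 cluster of neurons, are shown from 250 bases before to 50 bases after the gene start (GRCm38.p6). They span chr7:114636308-114636607 on the minus strand and chr17:85620584-85620883 on the plus strand. The RefSeq start of Six3 lies inside the longer Six3 span given above, which is from GENCODE and begins further upstream. Capitals mark every match, on either strand, to the cAMP-response core TGACG, the CCAAT-box core ATTGG, the E-box CAGCTG and the homeodomain core TAATTA.
Calca: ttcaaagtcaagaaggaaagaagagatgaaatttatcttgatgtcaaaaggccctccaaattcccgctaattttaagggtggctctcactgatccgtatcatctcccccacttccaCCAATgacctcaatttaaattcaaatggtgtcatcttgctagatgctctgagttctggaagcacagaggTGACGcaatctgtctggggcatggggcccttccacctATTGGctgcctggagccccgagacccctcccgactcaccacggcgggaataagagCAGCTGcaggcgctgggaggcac
Six3: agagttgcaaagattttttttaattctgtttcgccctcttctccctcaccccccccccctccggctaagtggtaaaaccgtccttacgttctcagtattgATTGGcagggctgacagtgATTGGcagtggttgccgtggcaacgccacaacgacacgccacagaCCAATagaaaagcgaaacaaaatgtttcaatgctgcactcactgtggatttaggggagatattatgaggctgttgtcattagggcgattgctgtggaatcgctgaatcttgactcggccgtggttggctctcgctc
The Calca window held 1 TGACG, 2 ATTGG and 1 CAGCTG, and the Six3 window held 3 copies of ATTGG. Neither window held TAATTA. Over 32851 mouse promoters of the same length, TGACG was found in 20.8%, ATTGG in 37.4%, CAGCTG in 16.3% and TAATTA in 5.29%. These matches describe letters in the windows and no binding was measured here.

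The cells were chosen by their own UMIs of these 5 genes, so the values of the rule's genes are a description. Calca ranged from 3 UMIs per cell to a median of 6 and a highest of 48 in the SD library, and from 3 to a median of 6 and a highest of 60 in the SD+RS library. Its sum was 482 UMIs in the SD neurons and 485 in the SD+RS neurons, which is 436 and 461 CPM (UMIs scaled to all UMIs of those cells). The level was thus spread widely over cells, with 28 of 91 at 10 UMIs or more and 24 at the threshold of 3. Lhx8 had a UMI in 38 of 45 and 39 of 46 cells, with a median of 6 UMIs in both libraries and a highest of 21 and 14. Six3 had a UMI in 36 of 45 and 42 of 46 cells, with a median of 6 and 10 UMIs and a highest of 37 and 19. Tmem178 was found in 41 cells of each library at a median of 2 and 3 UMIs, and Adgrf5 in 14 and 15 cells at a median of 0. Both Lhx8 and Six3 had a UMI in 65 of the 91 cells. Lhx8 without Six3 was found in 12 cells, Six3 without Lhx8 in 13, and neither gene in 1. Of the 91 cells, 4 passed the rule only because of Adgrf5.

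**Figure D1:**
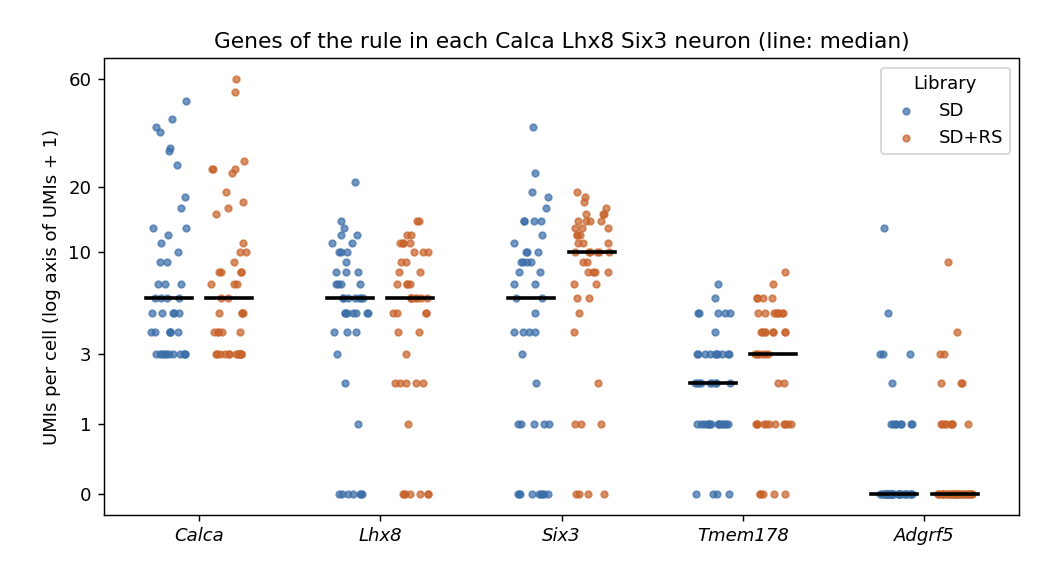
UMIs per cell of the 5 genes of the rule (log axis of UMIs + 1) in each of the 45 SD and 46 SD+RS neurons, with a line at the median. Calca runs from 3 to 48 and 60 UMIs, and Adgrf5 is at 0 in most cells.

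Just inside the Calca threshold, at 3 UMIs, were 11 SD and 13 SD+RS members, and just outside it, at 1 or 2 UMIs with at least 2 of the companion genes, were 40 and 44 neurons. Another 27 SD and 40 SD+RS neurons had 3 or more Calca UMIs with fewer than 2 companions. The companion genes were more frequent where Calca was high. As genes of the rule, chosen with earlier results of these data known, the companions are only described here. At least 2 of them were found in 62.5% of the 72 SD neurons with 3 or more Calca UMIs, in 28.2% of the 142 with 1 or 2, and in 20.5% of the 3709 with none. In the SD+RS library these shares were 53.5% of 86, 28% of 157 and 17.4% of 3906. The median depth of these classes lay between 21727 and 23791 UMIs. A Calca UMI was also seen in 7 of 2086 SD and 1 of 1289 SD+RS astrocyte-like cells (0.336% and 0.0776%, median depth 3491 and 3162 UMIs), a cell type that should lack the gene. Among the other neurons the share was 4.36% and 4.80%.

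The label was checked against markers. All 5 neuron markers were compared, and none differed by 2-fold between these cells and other neurons. Snap25 and Syt1 were among them, and both groups had passed the filter on these genes, so this comparison cannot check the label. Markers of GABA neurons were broadly present. Slc32a1, the vesicular GABA transporter, had a UMI in 41 of 45 and 41 of 46 cells, against 71.2% and 70.2% of other neurons. Gad1 and Gad2, which make GABA, had UMIs in 41 and 43 SD cells and in 44 and 45 SD+RS cells. Slc17a6, the vesicular glutamate transporter of subcortical neurons, had 59 UMIs in 6 SD cells and 9 UMIs in 2 SD+RS cells. Of those 8 cells, 5 (4 in SD and 1 in SD+RS) had no Slc32a1 UMI. Chat and Slc18a3, which define cholinergic neurons, had 0 UMIs in both libraries, a count that, taken as up to 3 UMIs, allows up to 2.72 CPM in SD and 2.85 CPM in SD+RS. Slc17a7 and Slc17a8 were also at 0 UMIs. Lhx8 in these cells was thus accompanied by GABA markers and not by the defining cholinergic ones.

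Markers of other cell types were present in part. The endothelial list (Cldn5, Flt1, Pecam1, Ly6c1 and Itm2a) was at 0 UMIs in 63 of 91 cells, and 9 cells, 5 SD and 4 SD+RS, had 2 or more. In other neurons 11.1% and 9.55% of cells had 2 or more. The highest sum in 1 cell was 75 UMIs in SD and 95 in SD+RS. Of 3 endothelial markers compared, Cldn5 and Ly6c1 were at least 2-fold higher than in other neurons in both libraries, with 59 and 38 UMIs in 4 and 3 SD cells and 30 and 26 UMIs in 1 SD+RS cell each. Adgrf5, a gene of the rule, was found in 84.2 and 85.2% of endothelial-like cells. The endothelial list summed to 147 CPM in SD and 105 CPM in SD+RS, and the mural list to 34.4 and 3.8 CPM. Microglial markers were at 0 in 89 of 91 cells and mural markers in 83. Astrocyte markers were seen in all but 4 cells, with a list sum of 374 and 393 CPM against 337 and 319 CPM in other neurons. A doublet caller marked 7 of the 91 cells, 4 in SD and 3 in SD+RS. Cells with Xist but no Y-linked UMI numbered 23 in SD and 35 in SD+RS, and cells with Y-linked UMIs but no Xist numbered 15 and 9. Among other neurons with only 1 of the 2 kinds, 39.1% had Xist in SD and 78.3% in SD+RS, so the sexes were mixed unequally between the libraries. No member carried one of the 23 barcodes that occur in both libraries.

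Neurons were clustered without the genes of the rule and without activity genes, to see whether these cells lay together. Of 39 clusters, cluster 1, with 491 cells and Cdh23, 1700003F12Rik, Cox6a2 and Hspb8 among its leading genes, held 63 of the 91 cells, 30 SD and 33 SD+RS. It also held 39.2% of all neuronal Calca UMIs. The other 28 cells were spread over 14 clusters with at most 4 in any, so the rule gathered 1 set within a single cluster and a scattered remainder. Clusters 2 and 27 held 4 each, the first led by Lamb3 and Sp9, the second by Sp8, Ddc and Th, a pair of enzymes of dopamine synthesis. Cluster 15, led by the astrocyte genes Slc1a3 and Agt, and cluster 33, led by the endothelial genes Cldn5, Ly6c1 and Flt1, held 3 each. On average 22.3% of a member's 20 nearest neighbours were members, against 1.13% of all neurons and 12.8% of the cells of cluster 1, where most of them lay. For the members in cluster 1 alone the share was 30.2%. Of the 91 cells, 16 had no member among their neighbours. The mean share of members among neighbours was 22.8% for SD cells and 21.7% for SD+RS cells. Cells outside cluster 1 had a median of 29299 UMIs in SD and 23364 in SD+RS, and those inside 21422.5 and 22387.

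The study's own clusters showed Calca in similar company. They were made from the same 2 libraries, so this is not an independent check. In the authors' deposited table for both libraries, Calca was a marker of cluster i19, found in 22.3% of its cells, with Lhx8 in 96.3% and Six3 in 58.2%. In the authors' deposited table it also marked cluster i20, in 23.8% of cells, with Lhx8 in 97.6% and Six3 in 52.4%. Cluster i28 of the authors' deposited table had Calca in 15.7% and Six3 in 53.5% of cells but Lhx8 in 3.5%. So even in the clusters it marked, Calca was found in a minority of cells.

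Within cluster 1, Six3 was more frequent in cells with Calca, while Lhx8 was found in nearly all cells. These genes belong to the rule and were chosen with earlier results known, so their shares are a description. Six3 had a UMI in 27 of 30 SD cells with 3 or more Calca UMIs, in 18 of 24 with 1 or 2, and in 91 of 209 with none. In SD+RS the counts were 33 of 34, 26 of 29 and 70 of 165. Adgrf5 was found in 10 of 30 and 11 of 34 cells with 3 or more Calca UMIs, against 17 of 209 and 5 of 165 with none. None of the 5 endothelial markers had enough UMIs in this cluster to be compared. Lhx8 was found in 30 of 30 and 32 of 34 cells with 3 or more Calca UMIs, and in 205 of 209 and 159 of 165 with none. Tmem178 was found in 28 of 30 and 29 of 34, against 154 of 209 and 126 of 165. Of the 64 cells of cluster 1 with 3 or more Calca UMIs, 63 met the whole rule, so the companion genes removed 1 cell there. The median depth of the compared cells was 21422.5 and 22172.5 UMIs with Calca and 21198 and 20705 without.

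**Figure D2:**
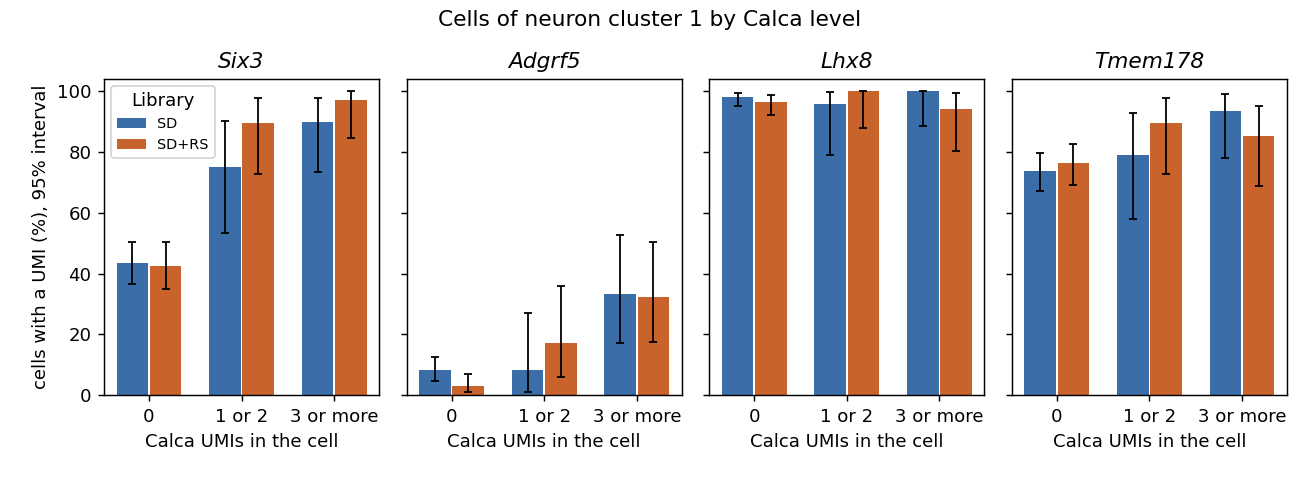
Percent of cluster 1 cells with a UMI of Six3, Adgrf5, Lhx8 or Tmem178, by the Calca UMIs of the cell, in each library, with exact binomial 95% intervals. Six3 is found in 43.5 and 42.4% of cells without Calca and in 27 of 30 and 33 of 34 cells with 3 or more Calca UMIs, while Lhx8 is above 94% throughout.

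Other genes also separated the Calca cells of cluster 1 from its cells without Calca. Of 5653 genes compared, 11 were at least 2-fold higher in both libraries (0.195%) and 10 at least 2-fold lower (0.177%), in 30 SD and 34 SD+RS cells against 209 and 165. A gene was compared with 20 UMIs observed or expected in each library. Among the higher genes were the serotonin receptor Htr2c, the transcription factors Onecut2 and Six3, the calcium buffer Calb1, and the neuronal nitric oxide synthase Nos1. The adhesion and guidance genes Sema5a and Cdh8, the synaptic vesicle gene Synpr, Ctnnbl1 and Gsta4 were also higher. Lower were the tachykinin precursors Tac1 and Tac2, the adhesion gene Cntn4, and Rbms3, Pld5, Tcerg1l, B3galt1, Frmpd4, Aff3 and Vstm2a.

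Htr2c had 116 CPM in SD cells with 3 or more Calca UMIs and 34 CPM in those with none, and 90.7 against 25.7 CPM in SD+RS. These are log2 ratios of 1.78 (1.37 to 2.18) and 1.82 (1.35 to 2.28), with a UMI in 76.7 and 61.8% of Calca cells against 28.7 and 21.8%. Calb1 had 455 against 182 CPM in SD and 552 against 110.5 CPM in SD+RS. Nos1 had 106 against 52.7 CPM and 110 against 46.7 CPM. Tac2, the precursor of neurokinin B, had 36.8 against 228 CPM in SD and 61.8 against 374 CPM in SD+RS, with a UMI in 13.3 and 14.7% of Calca cells and 43.1 and 53.3% of the others. Tac1, the precursor of substance P, had 57.5 against 276 CPM and 10.5 against 150 CPM. Tac1 had a UMI in 3 Calca cells of each library, 10 and 8.82%, against 24.4 and 15.8% of the cells without Calca. Both tachykinin precursors were thus found in a minority of the Calca cells, and Tac1 in a minority of the others too. Nts, the precursor of neurotensin, had a UMI in 14 of 30 and 12 of 34 Calca cells and in 64 of 209 and 55 of 165 without Calca. The 4 GABA genes had medians of -0.07 and -0.06, with none past 2-fold. Of 22 excitability channels and 10 heat shock genes compared, none was past 2-fold in both libraries.

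**Figure D3:**
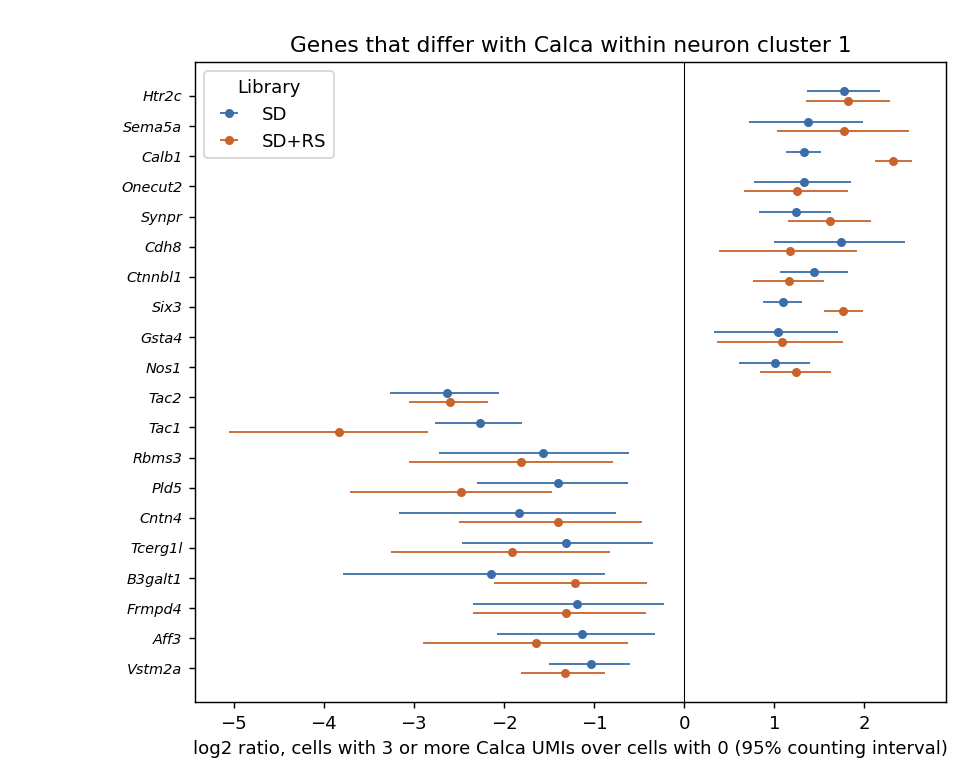
Log2 ratio of cells with 3 or more Calca UMIs over cells with 0 within cluster 1, with 95% counting intervals, for 20 of the 21 genes past 2-fold in both libraries. Htr2c lies at 1.78 and 1.82 and Tac2 at -2.63 and -2.60, and the 2 libraries lie on the same side of 0 for every gene, as the choice of genes requires.

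Against all other neurons of their library, the Calca Lhx8 Six3 neurons had 48 of 7159 genes at least 2-fold higher in both libraries (0.67%) and 42 at least 2-fold lower (0.587%). All 5 genes of the rule were among the 48, a place set by the rule. Rule genes apart, 5 of 6643 were at least 4-fold higher in both (0.0753%): Cdh23, Tgfb1, 1700003F12Rik, Klf4 and Crip1, the last 2 named after their values were seen. Klf4 was also among the leading genes of the endothelial cluster 33, and Crip1 among those of cluster 37, which the mural genes Acta2 and Tagln led. Cdh23, a cadherin known from the tip links of hair cells, had 26.3 and 24.7 CPM in 14 and 20 cells, against 2.02 and 1.52 CPM in other neurons. Its log2 ratios were 3.70 and 4.02. Without the cells that had 2 or more endothelial UMIs, 2 genes were at least 4-fold higher, Cdh23 and 1700003F12Rik, and with the cells of cluster 1 alone it was the same 2.

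Transcription factors of the region differed in both directions. Of 32 compared, 5 were at least 2-fold higher in both libraries, among them Lhx8, Six3, Isl1 and Onecut2, and Dlx1, Dlx2, Foxp2, Hmx2 and Nr2f1 were at least 2-fold lower. Isl1, a LIM-homeodomain factor of motor, striatal and hypothalamic neurons, had 164 and 173 CPM in 40 and 41 cells against 56.7 and 52.8 CPM in other neurons. Onecut2 had 67.0 and 60.8 CPM against 24.0 and 21.3 CPM. Foxp2 had 0 UMIs in both libraries against 39.4 and 35.1 CPM in other neurons. Nkx2-1, the factor that specifies the medial ganglionic eminence and preoptic anlage, had a UMI in 21 and 20 cells, and Lhx6 in 10 and 8. Six3 and Lhx8 were among the genes of the rule, so their place here was set by it.

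Among signalling genes, the adrenergic receptor Adra1b had 49.8 and 89.3 CPM against 18.7 and 18.5 CPM in other neurons, in 22 and 26 cells. The dopamine receptor Drd2 had 21.7 and 24.7 CPM against 9.92 and 9.49 CPM, in 13 and 10 cells. These were the 2 of 7 sleep and wake transmitter receptors past 2-fold. Th, the first enzyme of catecholamine synthesis, had 72.4 and 38 CPM in 10 and 6 cells against 13.2 and 16.4 CPM. Of the receptors for steroids and hormones, 1 of 7 was lower, the oestrogen receptor Esr1, with 5.43 and 15.2 CPM against 21.8 and 33.1 CPM. Sema3a, a secreted guidance cue, had 34.4 and 55.1 CPM against 14.9 and 14.0 CPM, and was the 1 of 24 synapse and adhesion genes that was higher. C1ql2, Ntng1, Epha5 and Cbln2 were lower. Sema3a and Drd2 were also among the leading genes of cluster 1 as a whole, where 63 of 491 cells were members. Shh, the secreted ventralizing signal, had 29.9 and 33.3 CPM in 18 and 21 cells against 12.3 and 10.6 CPM.

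The remaining genes named by the rule of size had log2 ratios between 1.18 and 2.55 in each library. They were Ctnnbl1, Ammecr1, St8sia2 (a polysialyltransferase), Acadl (a mitochondrial fatty acid oxidation enzyme), Gfra2 (the neurturin receptor), Spon1, Pou2f2, Cox6a2 (a cytochrome oxidase subunit), Gsg1l (an AMPA receptor partner), Pla2g7, Xpo6 and Tnfsf12. The lowest of them, Tnfsf12, had ratios of 1.18 and 1.34, and the highest single value was the 2.55 of St8sia2 in SD+RS. Spon1 and Cox6a2 were also among the leading genes of cluster 1 as a whole, most of whose cells were not members.

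**Figure D4:**
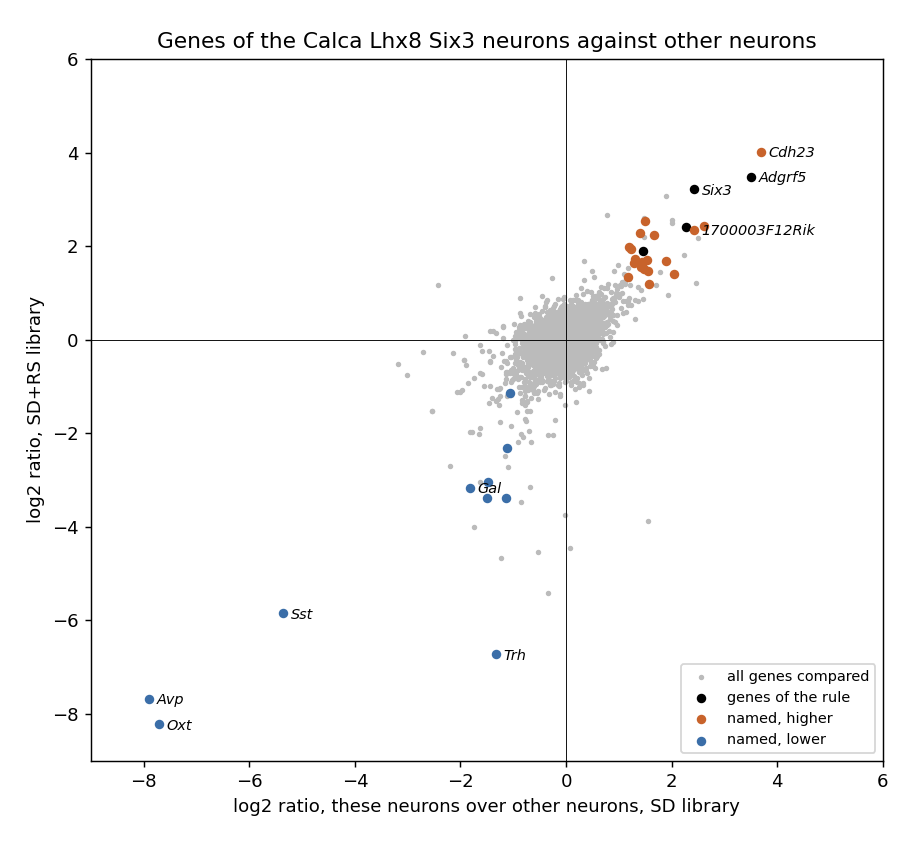
Log2 ratio of the Calca Lhx8 Six3 neurons over other neurons in the SD library (horizontal) and the SD+RS library (vertical), 1 point per gene, with named genes coloured. Cdh23 lies at 3.70 and 4.02, and Oxt and Avp lie below -7 in both; Calca itself, at 6.76 and 6.58, is outside the axes.

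Neuropeptide genes were mostly lower than in other neurons. Of 21 compared, 12 were at least 2-fold lower in both libraries and 0 at least 2-fold higher. The list summed to 2608 CPM in SD and 1533 CPM in SD+RS, against 10616 and 12757 CPM in other neurons. The low sum was shared by the other cells of cluster 1, with 2005 and 1985 CPM. The median cell had 25 and 23.5 UMIs of the list here, and 32 and 37 in other neurons. The hormones of magnocellular neurons were low. Oxt had 29.9 and 27.6 CPM against 6222 and 8245 CPM, and Avp 3 and 4 UMIs. Sst had 5 and 4 UMIs, or 4.53 and 3.8 CPM against 186 and 220 CPM. Cartpt, the precursor of CART peptides, was the exception in direction, with 1107 CPM in 34 SD cells and 569 CPM in 29 SD+RS cells against 291 and 293 CPM, ratios of 1.93 and 0.96. Within the calcitonin family, Calcb, which encodes beta-CGRP, had 12 and 6 UMIs in 5 cells of each library. The CGRP receptor parts Calcrl and Ramp1 had 1 and 1, and 12 and 6, UMIs. Calcr, the calcitonin receptor, had 48 UMIs in 10 SD cells and 17 in 6 SD+RS cells.

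A closer comparison was with 126 SD and 83 SD+RS neurons that had at least 2 UMIs each of Lhx8 and Six3 but no Calca. These cells differed in transmitter genes. Their acetylcholine list summed to 568 CPM in SD and 1042 CPM in SD+RS, against 138 and 139 CPM in the members. The part of this in the contrasts below was not tested. The 10 genes that were highest above these cells in both libraries were Onecut2, Nts, Ctnnbl1, Pou2f2, Bcam, Reln, Ubash3b, 1700003F12Rik, Cpne6 and Fndc9. Onecut2 had 67.0 and 60.8 CPM against 18.3 and 17.7 CPM, and Nts 282 and 190 CPM against 79.3 and 91.2 CPM. Isl1, Cdh23 and Drd2 were close in the 2 groups: Isl1 had 164 and 173 CPM against 142 and 135, Cdh23 26.3 and 24.7 against 20.3 and 17.7, and Drd2 21.7 and 24.7 against 19.5 and 23.4.

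Between the libraries, the share of these neurons among all neurons differed by less than its counting intervals, and so did Calca, with a log2 ratio of SD+RS over SD of 0.08 (-0.11 to 0.26). Lhx8 had a ratio of 0.03 (-0.22 to 0.27). Six3 was higher in SD+RS, 408 against 299.7 CPM or 0.44 (0.23 to 0.66), and in other neurons it was lower there, at -0.34. In the members of cluster 1 its ratio was 0.20 (-0.05 to 0.46). All 3 are genes of the rule. Of 8029 genes with at least 30 UMIs over both libraries, 79 were at least 2-fold higher in SD+RS (0.984%) and 108 at least 2-fold lower (1.35%). The median ratio over these genes was -0.00 in these neurons and -0.02 in other neurons, where 0 and 6 of the same genes were past 2-fold higher and lower (0% and 0.0747%). The interval left out 0 for 65 of the higher genes (0.81%) and 95 of the lower ones (1.18%). With 45 and 46 cells behind each value, many of these genes had few UMIs.

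The genes that led in SD+RS were Eci1, Pou3f2, Mef2c, Chodl, Sgf29, Tbc1d20, Ftsj1, Skap1, C330007P06Rik and Slc35a2, with ratios from 1.44 to 2.07. Eci1, an enzyme of fatty acid oxidation, had 7 UMIs in 7 SD cells and 28 UMIs in 21 SD+RS cells, a ratio of 2.07 (0.84 to 3.51) against -0.05 in other neurons. Mef2c, an activity-regulated transcription factor, had 18 and 61 UMIs in 11 and 14 cells, 1.83 (1.05 to 2.68) against -0.16. Lower in SD+RS were Ighm, Abcg2, AC149090.1, Midn, Pigq, Tcf12, Cacna2d1, Sfxn5, Gal and Enpp4, with ratios from -2.28 to -1.65. AC149090.1 had 268 and 60 UMIs in 45 and 28 cells, -2.09 (-2.52 to -1.68), and it was also lower in other neurons, at -1.67. Tcf12, a basic helix-loop-helix factor, had 39 UMIs in 25 SD cells and 11 in 10 SD+RS cells, -1.76 (-2.87 to -0.76) against -0.34. Cacna2d1, an auxiliary calcium channel subunit, had 44 and 13 UMIs in 12 and 6 cells, -1.69 (-2.71 to -0.77) against -0.12. For Gal, 244 of the 326 SD UMIs came from 1 cell, and for Abcg2, 17 of 32. In the members of cluster 1 the direction turned for Gal, with 8 and 52 UMIs, 2.57 (1.49 to 3.85), 39 of the 52 in 1 cell. It turned for Cacna2d1 too, with 2 and 8 UMIs, 1.87 (-0.46 to 5.14). Without the cells with 2 or more endothelial UMIs Cacna2d1 had -0.94 (-2.08 to 0.13) and Abcg2 -0.78 (-2.36 to 0.68), intervals that include 0. Without called doublets Abcg2 had -0.89 (-2.45 to 0.55), and in cluster 1 -0.55 (-2.35 to 1.17). In cluster 1 the intervals of Skap1, Slc35a2, Pigq and Enpp4 also included 0.

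The heat shock gene Dnajb1 and the cold-inducible genes as a sum differed between the libraries in the same direction as in other neurons. Dnajb1, a heat shock co-chaperone, had 129 CPM in 43 SD cells and 49.4 CPM in 30 SD+RS cells, -1.39 (-1.88 to -0.92), and -0.86 in other neurons. It was the 1 of 13 heat shock genes past 2-fold. The 3 cold-inducible RNA-binding genes Cirbp, Rbm3 and Srsf5 summed to 588 and 813 CPM, 0.47 (0.32 to 0.62) against 0.52 in other neurons. Of 14 clock genes and 14 unfolded protein response genes, none was past 2-fold. Of 29 excitability channels, Kcnmb4 was higher and Cacna2d1 lower. Of 8 sleep and wake transmitter receptors, 3 were at least 2-fold lower in SD+RS. The adenosine receptor Adora1 had 24 and 9 UMIs in 17 and 7 cells, -1.35 (-2.63 to -0.19). The histamine receptor Hrh1 had 22 and 9 UMIs, -1.22 (-2.52 to -0.04), and the adrenergic receptor Adra2a 48 and 22 UMIs, -1.06 (-1.85 to -0.30). For Adora1 the interval included 0 without called doublets, at -1.14 (-2.46 to 0.06), and in cluster 1, at -1.23 (-2.77 to 0.15). The list as a sum had -0.06 (-0.26 to 0.14), against -0.24 in other neurons.

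Neuropeptides as a list were lower in SD+RS, with 2608 CPM in SD and 1533 CPM in SD+RS, or -0.77 (-0.86 to -0.68), against 0.27 in other neurons. Oxt held most of the list's CPM in other neurons, and the other cells of cluster 1 had -0.01 (-0.06 to 0.03). Of 16 genes compared in the members, 8 were at least 2-fold lower and 1, Cck, at least 2-fold higher. Over all 8029 genes these shares were 1.35% and 0.984%. Among the 8 was the growth factor gene Bdnf, which is also given below with the slower activity genes. The median cell had 25 UMIs of the list in SD and 23.5 in SD+RS, so the typical cell was close to level and part of each sum came from a few high cells. Of the 240 Tac2 UMIs in SD, 214 were in 1 cell, and of the 188 Cck UMIs in SD+RS, 114 were in 1 cell. In the members of cluster 1 the list had -0.49 (-0.60 to -0.37) and Tac2 turned to 0.78 (0.05 to 1.54), with 43 of its 47 SD+RS UMIs in 1 cell. Cartpt was less concentrated: the highest cell had 201 of 1223 UMIs in SD and 76 of 599 in SD+RS, and the ratio was -0.96 (-1.10 to -0.82) against 0.01 in other neurons.

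Immediate early genes, whose transcription follows neuronal firing without new protein synthesis, were summed over 14 core genes, among them Fos, Fosb, Junb, Egr1, Nr4a1, Npas4 and Arc. The Calca Lhx8 Six3 neurons had 412 UMIs in SD and 301 in SD+RS, or 373 CPM (338 to 411) and 286 CPM (255 to 320). The log2 ratio was -0.38 (-0.60 to -0.17), against 0.01 in other neurons, which had 267 and 269 CPM. Cell by cell, the lowest value was 0 and the median 2 UMIs in both libraries, the highest 108 and 157, and a UMI was found in 35 of 45 and 29 of 46 cells. The bulk of the cells overlapped, and 3 cells held 200 of the 412 UMIs in SD and 193 of the 301 in SD+RS.

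The sign of this difference depended on a few cells. The 9 cells with 2 or more endothelial UMIs held 186 of the SD and 172 of the SD+RS early gene UMIs, or 1255 and 1811 CPM. Without them the level was 236 CPM in 40 SD cells and 135 CPM in 42 SD+RS cells, -0.81 (-1.13 to -0.49). Without the 7 cells called doublets it was 243 and 301 CPM, 0.31 (0.06 to 0.56), the other direction. That step removed the highest SD cell, with 108 early gene and 75 endothelial UMIs. The highest SD+RS cell, with 95 endothelial UMIs, was not called and held 157 of the 297 SD+RS early gene UMIs left. Cells with Xist only gave -0.34 (-0.61 to -0.07) and cells with Y-linked UMIs only 0.78 (0.15 to 1.40), again opposite. The part of endothelial RNA, doublets and sex in this difference was not tested. Within cluster 1, with 30 and 33 member cells, the level was 233 CPM in SD and 130.5 CPM in SD+RS, -0.84 (-1.22 to -0.46). This sum also leaned on a few cells, as 1 SD cell held 33 and another 31 of the 158 SD UMIs. The highest SD+RS cell there held 16 of 97. The median member cell of the cluster had 1 UMI in SD and 2 in SD+RS, the other direction. The other cells of cluster 1 had 142 and 147 CPM, 0.05 (-0.11 to 0.21). The member cells outside the cluster had 596 and 660.1 CPM, 0.15 (-0.13 to 0.42). Without the cells with 2 or more endothelial UMIs, the members in cluster 1 had 244 and 118 CPM, -1.05 (-1.45 to -0.65). Their median cell again had 1 UMI in SD and 2 in SD+RS, and the same highest SD cells were kept.

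**Figure D5:**
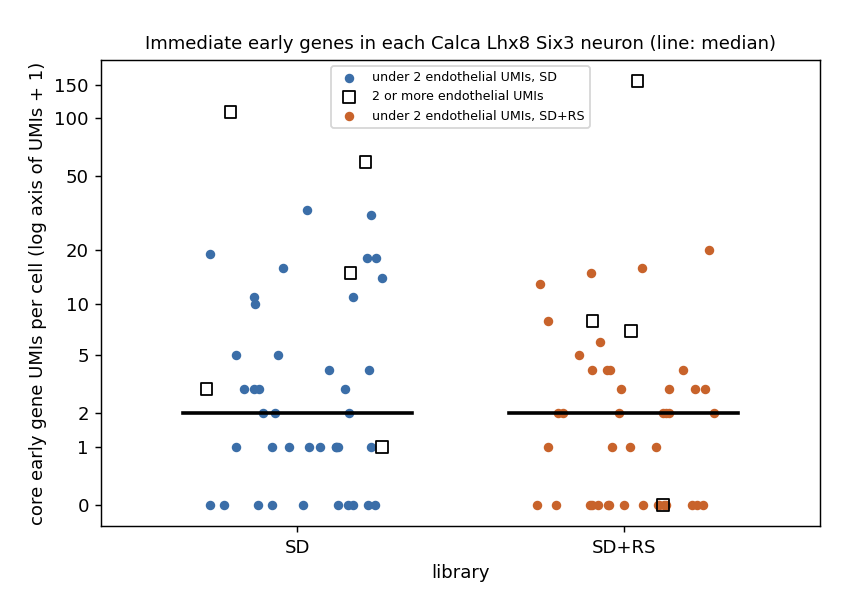
UMIs of the 14 core immediate early genes (log axis of UMIs + 1) in each of the 45 SD and 46 SD+RS neurons, with a line at the median of 2 and open squares for the 9 cells with 2 or more endothelial UMIs. The highest cell in each library, at 108 and 157 UMIs, is an open square.

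Single early genes differed in the same uneven way. Fos had 116 UMIs in 16 SD cells and 57 in 11 SD+RS cells, 105 and 54.2 CPM or -0.96 (-1.44 to -0.49), against 57.0 and 56.3 CPM in other neurons. Without the cells with endothelial UMIs the Fos ratio was -2.27 (-3.15 to -1.48), from 77 and 16 UMIs, and in cluster 1 -2.15 (-3.01 to -1.37), from 69 and 17. In both settings 1 SD cell held 21 and another 20 of the SD UMIs, and the median cell had 0 in both libraries. Fos was found in 13 of 40 and 9 of 42 cells in the first setting, and in 11 of 30 and 7 of 33 in cluster 1. Without called doublets the Fos ratio was -0.50 (-1.01 to 0.01), and in the members outside cluster 1 it was 0.23 (-0.42 to 0.87). When every cell was thinned to 4000 UMIs, a Fos UMI remained in 9 of the 45 SD neurons (9.58 to 34.6%) and in 5 of the 46 SD+RS neurons (3.62 to 23.6%), and unthinned in 35.6 and 23.9%. Other neurons had 12.6 and 13.8% after thinning, and astrocyte-like cells 11.4 and 12.4%, so both shares had intervals that included the share in astrocyte-like cells. Cells with fewer UMIs were left out of this comparison, which removed 1470 of 2086 SD and 1088 of 1289 SD+RS astrocyte-like cells and none of the Calca Lhx8 Six3 neurons. Thinned to 2000 UMIs, the shares were 11.1% (3.71 to 24.1%) and 6.52% (1.37 to 17.9%), against 7.40 and 8.46% of other neurons and 5.37 and 3.43% of astrocyte-like cells. Junb had 91 and 55 UMIs, -0.66 (-1.17 to -0.16), but -0.50 (-1.24 to 0.22) without the cells with endothelial UMIs, 0.33 (-0.27 to 0.94) without called doublets and -0.13 (-1.01 to 0.75) in cluster 1. Egr1 had 65 and 58 UMIs, -0.09 (-0.63 to 0.44). Dusp1, a phosphatase gene induced with them, had 39 and 16 UMIs, -1.22 (-2.15 to -0.34), and its interval included 0 in each of the same settings, at -0.77 (-2.06 to 0.44), -0.16 (-1.23 to 0.89) and -1.02 (-2.59 to 0.41). Nr4a1 had 10 UMIs in 7 cells and 22 in 2, 21 of them in 1 cell.

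The slower activity genes were lower in SD+RS as a sum. Their list had 1710.1 CPM in SD and 1147 CPM in SD+RS, -0.58 (-0.68 to -0.47), against 0.08 in other neurons, and the median cell had 25 and 16.5 UMIs. Vgf, a neurosecretory protein gene, had 512 and 310 CPM in 35 and 30 cells, -0.73 (-0.93 to -0.53). Scg2, secretogranin II, had 806 and 586 CPM in all cells of both libraries, -0.46 (-0.61 to -0.31), and in cluster 1 -0.17 (-0.39 to 0.04). Bdnf, a growth factor gene, had 41 UMIs in 6 SD cells and 3 in 2 SD+RS cells, with 15 of the 41 in 1 cell, and in cluster 1 it had 4 and 3 UMIs. In the cells of cluster 1 the list ratio was -0.29 (-0.44 to -0.15) and in the other cells of that cluster -0.05 (-0.10 to 0.01). Without the cells with endothelial UMIs the members' list ratio was -0.57 (-0.68 to -0.45). It was -0.52 (-0.66 to -0.39) in members with Xist only and -0.14 (-0.37 to 0.08) in those with Y-linked UMIs only, an interval that includes 0.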

How the data were processed

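Single-cell RNA was measured in 2 libraries, 1 per group, holding 132191585 (SD) and 123500649 (SD+RS) UMIs. The values deposited by the authors are raw UMI counts, and the file headers name Cell Ranger 3.0.2. The submitters' processing notes name the mm10 build and Seurat 4.0.4. The authors' deposited marker table for both libraries gives the fraction of a cluster's cells with a gene, per the file headers, printed here as percent. No source used here gives the counting strand. Groups came from the treatment labels.

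UMIs were summed over cells and scaled to all UMIs of those cells (CPM). Intervals are 95%: exact Poisson for levels, exact Clopper-Pearson for shares and exact conditional binomial for ratios, and UMIs of 1 cell are not independent of each other. With 1 library per group there was no test. Doublets were called with Scrublet in scanpy 1.11.5 (expected rate 6%), which marked 578 of 9875 SD and 294 of 7709 SD+RS cells. They were kept, and removed as an alternative. Neurons of both libraries were clustered together (2000 variable genes, 40 components, 20 neighbours, Leiden 0.10.2 at resolution 1.5). The ratio calculations were tested on simulated data.

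Named genes were chosen as follows. Against other neurons, and in the same way against Lhx8 Six3 neurons without Calca (10 genes), they were the 20 genes with the highest value of the lower within-library ratio, with 20 UMIs and 30% of cells in each library. Another 10 had the lowest ratios among genes with 100 expected UMIs. Between libraries, they were the 10 highest and 10 lowest ratios with 30 UMIs, 20% of cells in a library and an interval without 0. Genes within cluster 1 are those past 2-fold in both libraries. Of the genes so chosen or counted from lists, 2 are not reported here. Early, calcitonin and transmitter genes were named one by one, and other genes from lists. The members, lists and rules were chosen with earlier results of these data known. Alternatives were other thresholds of the rule, depth, doublets, sex, single cells left out and, added after seeing the data, cells with endothelial UMIs left out and cluster 1 alone. Some single genes and lists were also recomputed without called doublets and outside cluster 1. Mitochondrial, haemoglobin, Xist and Y-linked genes were left out of the named genes.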

Additional observations from a re-analysis of the deposited data

Results flagged for a closer look

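In 4 gene lists the summed level differed one way between the libraries in the Calca Lhx8 Six3 neurons and the other way in other neurons, with both counting intervals leaving out 0. Cell type marker lists and the rule's own genes were not considered, and other lists with opposite signs had an interval that included 0. The difference between the 2 kinds of cell was not tested, since each group has 1 library. Neuropeptides had a log2 ratio of SD+RS over SD of -0.77 against 0.27 in other neurons. Oxt held most of this list's CPM in other neurons, where the median ratio over 16 of its genes was 0.04. The other cells of cluster 1 were level for this list, at -0.01 (-0.06 to 0.03). Late activity genes had -0.58 against 0.08. The regional transcription factors had 0.13 against -0.06, and this list holds Lhx8 and Six3, which were genes of the rule. Without them it had 0.08 (-0.02 to 0.17) against -0.05, an interval that includes 0. The list was thus flagged only with the rule's genes in it, though the signs stayed opposite without them. Calcium-binding genes with Nos1 had 0.12 against -0.01.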

How the results depend on the processing

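Of 123 alternative values over the 12 results recomputed, 74 stayed within the counting error or within 1.5 times of a count, 39 moved and 10 were reversed. Reversed means a change of sign from a main ratio whose interval left out 0. The early gene ratio over other neurons in SD+RS had an interval that included 0, so its changes of sign are not among the 10. No paired analysis was possible because each group has 1 library, and for the same reason no replicate could be left out. The cause of each change was not tested, apart from alternatives that by construction use fewer cells or genes.

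The early gene ratio of SD+RS over SD, -0.38, became 0.31 without called doublets, 0.28 with 3 of the 4 companion genes required, 0.011 with 2 of Lhx8, Six3 and Tmem178, and 0.78 in the cells that had Y-linked UMIs alone. It became -1.02 without the cell with most early gene UMIs in each library, -0.81 without cells with endothelial UMIs and -0.84 in cluster 1. The difference of that ratio from other neurons, -0.40, became, in the same order, 0.14, 0.27, 0.0029, 0.71, -1.03, -0.94 and -0.85. The settings without doublets, with 3 companions and with 2 of Lhx8, Six3 and Tmem178 kept the SD+RS cell with 157 early gene UMIs. They left out the SD cell with 108. The early gene ratio over other neurons in SD, 0.48, became 0.14 without doublets, 0.74 with at least 5 Calca UMIs, 0.13 with 3 companions, 0.091 with 2 of Lhx8, Six3 and Tmem178, 0.30 as a mean over cells, 0.095 without the highest cell, -0.77 in Y-linked cells alone, 0.062 without endothelial UMIs and -0.20 in cluster 1. In SD+RS it was 0.09 and became 0.28 without doublets, 0.55 with 5 Calca UMIs, 0.40 with 3 companions, -0.94 without the highest cell, -0.87 without endothelial UMIs and -1.05 in cluster 1.

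The share of neurons in SD became 0.714% with at least 5 Calca UMIs, 0.739% with 3 companions and 0.768% in cluster 1, and in SD+RS 0.675%, 0.795% and 0.798%. The share of neighbours, 22.3%, became 14.0% with 5 Calca UMIs, 26.0% with 3 companions, 24.8% with 10 neighbours and 30.2% in cluster 1. Genes past 2-fold lower, 108, became 61 with 3 companions, 34 with at least 50 UMIs and 49 in cluster 1, and those higher, 79, became 18 with at least 50 UMIs. Genes at least 4-fold above other neurons, 5, became 3 with 2 of Lhx8, Six3 and Tmem178, 1 with at least 50 UMIs, 2 without endothelial UMIs and 2 in cluster 1. The Fos shares, 20% and 10.9%, were 35.6 and 23.9% without thinning.

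Depth limits single genes: 3 UMIs are 2.72 CPM in the 45 SD cells and 2.85 CPM in the 46 SD+RS cells.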

Other observations

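Neighbouring sets of cells gave other early gene values. The 126 and 83 neurons with Lhx8 and Six3 but no Calca had 389 CPM of the 14 core early genes in SD and 179 CPM in SD+RS, a log2 ratio of -1.12 (-1.27 to -0.96). The 27 and 40 neurons with 3 or more Calca UMIs outside the rule had 179 and 613 CPM, 1.77 (1.5 to 2.05). Endothelial UMIs and doublets were not removed from either set, and the set without Calca had the higher acetylcholine list sum given above.

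The members with at least 10 Calca UMIs, 28 of 91, had Adgrf5 in 13 cells, and the other 63 had it in 16, shares of 46.4% and 25.4%. Six3 was found in 26 of 28 and 52 of 63, and Lhx8 in 23 of 28 and 54 of 63. These shares pool both libraries.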
